A study of Mus musculus with 12 samples.

Results

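Satellite glia genes were followed through 12 RNA-sequencing libraries of cultured mouse dorsal root ganglion (DRG) neurons. The set holds 10 genes, Fabp7, Bcan, Mmd2, Sox2, Glul, Apoe, Slc1a3, Pla2g7, Hapln1 and Ednrb, chosen by name out of 16617 genes with counts in both compartments, and all 10 were among the 15990 genes tested. Fabp7, Bcan and Mmd2 were picked also for low levels in het cultures, so their difference between genotypes is given as a description, with no test. The cultures came from adult mice of C57B6 background, GAR+/- mice for those called het here and GAR+/+ mice for those called WT, and the study concerned nucleolin, which binds RNA in the nucleolus and outside it. Each culture held the dissociated ganglia of 1 mouse, grown for 3 days on inserts with 1 µm pores, through which neurites pass while the soma stay above. There were 3 libraries each of het neurites, WT neurites, het soma and WT soma, stated to be independent biological repeats. Cells were spun on a Percoll cushion before plating, and no other step against glia is described, so the label of a library (neurites or soma) names its compartment and not a pure cell type.

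Satellite glia are the cells that wrap the cell bodies of sensory neurons in a ganglion. They take up potassium and glutamate around the neuron, are coupled to each other by gap junctions, and arise from the neural crest like the neurons and the Schwann cells of the nerve. In mouse DRG, Fabp7 and glutamine synthetase are used as markers of these cells.

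Library totals lay between 14965973 and 32434916 counts, and a count of 0 allows up to 3 counts, or 0.0925 to 0.2 CPM (counts scaled to the library size), which covers counting error only. Ncl, the gene of nucleolin, had 380.1 ± 46.9 CPM in het neurites and 399.9 ± 72.1 CPM for WT neurites, and 266 ± 21.1 in het soma and 231 ± 12.1 CPM in WT soma (SD, n = 3 each), with no difference between genotypes past the threshold (adjusted p = 0.794 in neurites and 0.697 in soma, edgeR quasi-likelihood test with Benjamini-Hochberg adjustment). Counts were per transcript of the whole gene, so this level checks no altered domain. The summed level of 18 neuronal genes was 14494 to 18634 CPM in het neurites, 12358 to 15819 in WT neurites, 18269 to 21577 CPM in het soma and 16379 to 18836 CPM in WT soma. That of 22 other satellite glia genes was 2078 to 3018 CPM in het neurites, 3635 to 4352 for WT neurites, 1971 to 2093 CPM in het soma and 2803 to 3016 CPM in WT soma, so RNA of glial genes was present in every library.

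The genes that stood lower in both compartments of the het cultures by the choice of the members were Fabp7, Bcan and Mmd2, and the DNA just upstream of each is shown because they shared this pattern. Each stretch covers 200 bases, from 250 to 51 before the RefSeq transcription start (RefSeq, GRCm38.p6), in the direction of transcription, and all 10 genes had an entry. Capitals mark matches, on either strand, to 4 short motifs: TGGGAA (core of RBPJ, the DNA-binding partner of Notch), TTGGCA (a motif of the NFI factors), and ACAAAG and ACAATG (cores bound by SOX factors). Fabp7 lies on chromosome 10 (plus strand), with the stretch at chr10:57784673-57784872. Bcan lies on chromosome 3 (minus strand), with the stretch at chr3:88000407-88000606. Mmd2 lies on chromosome 5 (minus strand), with the stretch at chr5:142608803-142609002. The other genes lie on chromosomes 3 (Sox2), 1 (Glul), 7 (Apoe), 15 (Slc1a3), 17 (Pla2g7), 13 (Hapln1) and 14 (Ednrb).
Fabp7: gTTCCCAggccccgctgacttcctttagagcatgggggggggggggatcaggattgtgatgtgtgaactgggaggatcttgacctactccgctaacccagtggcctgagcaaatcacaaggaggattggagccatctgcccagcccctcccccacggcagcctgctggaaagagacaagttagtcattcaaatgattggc
Bcan: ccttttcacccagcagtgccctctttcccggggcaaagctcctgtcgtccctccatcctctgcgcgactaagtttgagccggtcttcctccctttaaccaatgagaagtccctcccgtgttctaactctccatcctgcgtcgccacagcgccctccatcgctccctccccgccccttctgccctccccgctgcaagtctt
Mmd2: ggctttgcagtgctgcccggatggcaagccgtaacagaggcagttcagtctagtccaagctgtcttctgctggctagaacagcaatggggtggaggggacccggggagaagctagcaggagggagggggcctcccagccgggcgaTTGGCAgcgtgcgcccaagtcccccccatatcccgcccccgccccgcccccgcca
Fabp7 held 1 match to TGGGAA, in its reverse complement, and Mmd2 held 1 match to TTGGCA. No match to the 4 motifs was in the Bcan stretch, and none of the 4 was shared by any pair of these 3 stretches. Over 32851 RefSeq promoters, TGGGAA was in 17.9% of the same windows, TTGGCA in 10.2%, ACAAAG in 13.6% and ACAATG in 8.94%. Among the other members, ACAAAG was in the windows of Sox2 and Pla2g7, and Apoe held TTGGCA and ACAATG in different windows of its listed starts. A match is a description of the letters and not a site of binding.

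Fabp7 encodes a fatty acid binding protein of glia and glial precursors. Its levels were 19.3, 16.1 and 16.4 CPM in het neurites, against 30.5, 29.5 and 37.6 CPM in WT neurites. In the soma they were 14.0, 10.6 and 10.8 CPM in het, against 21.5, 22.0 and 27.1 CPM in WT. The highest het library lay below the lowest WT library in both compartments, which is what the choice of the gene fixed. The log2 fold change of het over WT was -0.92 ± 0.15 (SE) in neurites and -0.99 ± 0.15 in soma.

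Mmd2 encodes a membrane protein of the PAQR family. Its levels were 30.2, 23.0 and 24.7 CPM in het neurites, against 48.2, 47.3 and 57.1 CPM for WT neurites, and the log2 fold change was -0.98 ± 0.14. In the soma its levels were 22.8, 18.4 and 17.3 CPM in het, against 32.6, 38.0 and 41.0 CPM in WT, and the log2 fold change was -0.93 ± 0.14. The extremes matched those of Fabp7: het neurites 1 was the highest het neurite library and WT neurites 3 the highest of all 12 for both genes.

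Bcan encodes brevican, a chondroitin sulfate proteoglycan that binds hyaluronan. Its levels were 10.6, 7.83 and 6.35 CPM in het neurites, against 21.3, 14.7 and 27.4 CPM for WT neurites, and the log2 fold change was -1.37 ± 0.23. In the soma its levels were 7.0, 6.95 and 9.58 CPM in het, against 17.7, 13.7 and 17.6 CPM in WT, and the log2 fold change was -1.07 ± 0.23. The WT neurite libraries of Bcan were spread wider than those of Fabp7 and Mmd2, with 21.1 ± 6.35 CPM (SD, n = 3). Over 19 other ways of fitting, the log2 fold changes of the 3 genes stayed between -1.004 and -0.80 for Fabp7, -1.58 and -1.13 for Bcan and -1.10 and -0.88 for Mmd2 in neurites. In soma they stayed between -1.13 and -0.88 for Fabp7, -1.22 and -0.98 for Bcan and -1.05 and -0.85 for Mmd2. In bulk RNA, fewer glial cells and less RNA of a gene per cell cannot be told apart.

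**Figure D1:**
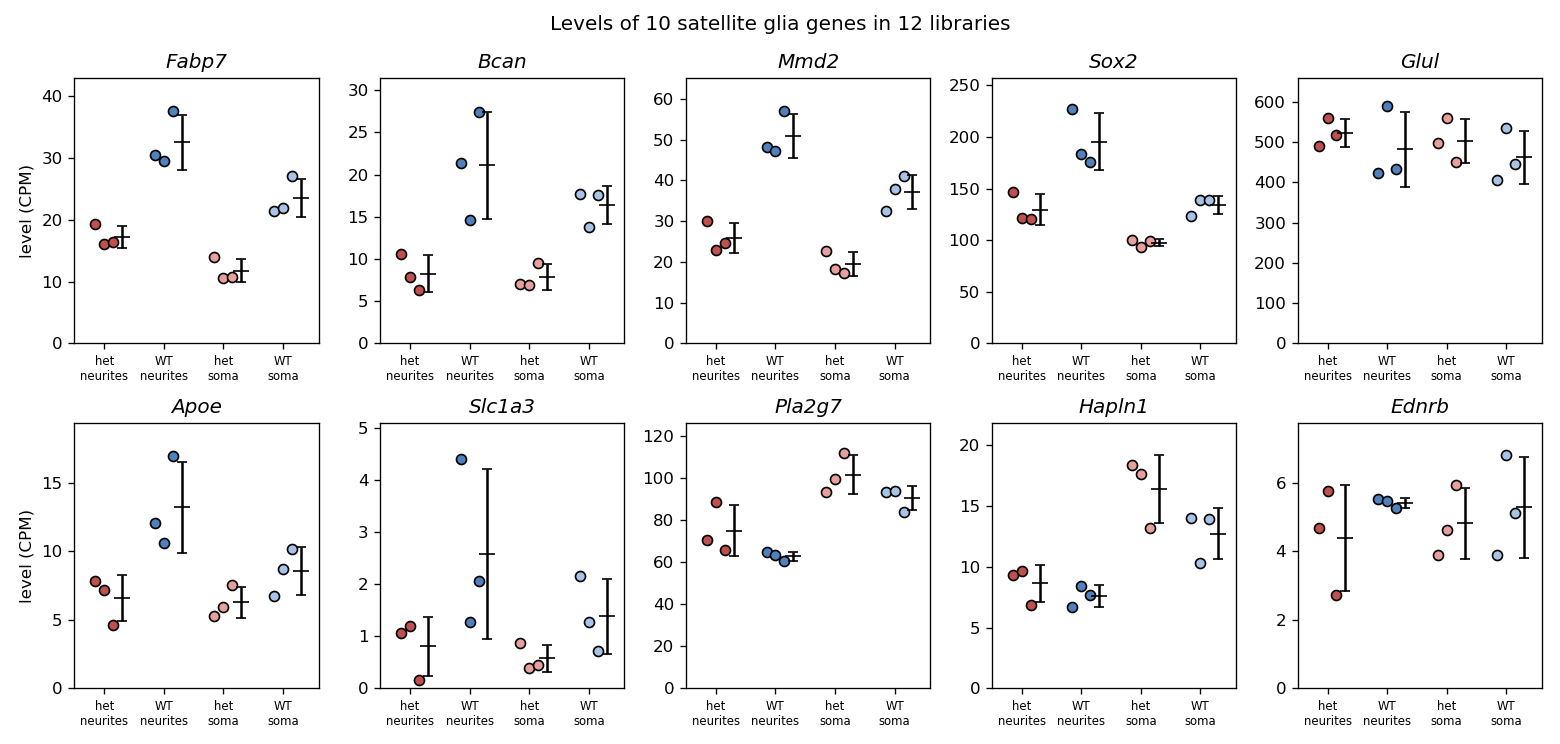
Level in CPM (linear axes from 0) of each of the 10 genes in every library, by group from left to right het neurites, WT neurites, het soma and WT soma; points are libraries and the bar beside them is mean ± SD (n = 3). Fabp7, Bcan and Mmd2 stood lower in het by choice, Sox2 and Apoe had het neurite libraries below all WT neurite libraries, and Pla2g7 and Hapln1 had neurite libraries below the soma libraries of the same genotype.

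Of the 7 genes not picked for their genotype difference, 2 fell in het neurites and none rose. Sox2, a transcription factor of neural stem cells and glia, was 1.51-fold lower, and Apoe, a lipid carrier made by glia and macrophages, was 2.03-fold lower. Over all genes 3.27% passed the same test (2.78% lower and 0.494% higher), and the edgeR quasi-likelihood test with Benjamini-Hochberg adjustment over all 15990 genes is meant wherever an adjusted p is given. The median log2 fold change of the 7 genes was -0.30, beside -0.01 over all genes, with 4 of the 7 below 0 and 3 above it, where 51.5% and 48.5% of all genes were. In soma too 4 of the 7 were below 0 and 3 above it, where 48.5% and 51.5% of all genes were.

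Sox2 had 147, 122 and 120.3 CPM in het neurites, against 227, 183 and 176 CPM in WT neurites. All 3 het neurite libraries lay below all 3 WT neurite libraries, and the log2 fold change was -0.59 ± 0.11 (adjusted p = 0.0215). This call was lost when single libraries were left out: adjusted p was 0.0752 without WT neurites 1, 0.055 without WT neurites 3, 0.121 without het neurites 2, 0.117 without het neurites 3, and 0.119 when only the 6 neurite libraries were fitted. It was also lost with all transcripts of the neurite table (0.119). Of 19 other fits the call passed in 13, among them the fit blocked on replicate number (adjusted p = 0.00147). In the soma Sox2 had 101, 93.4 and 99.1 CPM in het, against 124, 139 and 139 CPM in WT. These groups did not overlap either, with a log2 fold change of -0.46 ± 0.11 that missed the threshold (adjusted p = 0.144). Blocking on the replicate number gave -0.46 in soma, which passed (adjusted p = 0.0168). In the authors' deposited table the log2 fold change of Sox2 in soma was -0.45 with a false discovery rate of 0.000229. In neurites it was -0.57 with a false discovery rate of 0.00296. Sox2 lies within the longer gene Sox2ot on the same strand (chromosome 3, 34104270 to 34682619 in GRCm38), so reads of the overlap could belong to either.

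Apoe had 7.86, 7.21 and 4.66 CPM in het neurites, against 12.1, 10.6 and 17.0 CPM in WT neurites. The groups did not overlap, and the log2 fold change was -1.02 ± 0.23 (adjusted p = 0.0302). The call did not pass without WT neurites 1 (adjusted p = 0.0824), WT neurites 3 (0.119), het neurites 2 (0.121) or het neurites 3 (0.153), nor with the 6 neurite libraries alone (0.117). It was also lost with all transcripts of the neurite table (0.118). Of 19 other fits the call passed in 13, among them the fit blocked on replicate number (adjusted p = 0.00868). In the soma Apoe had 5.31, 5.94 and 7.56 CPM in het, against 6.73, 8.71 and 10.2 CPM in WT, with overlapping groups and a log2 fold change of -0.45 ± 0.23 (adjusted p = 0.597). The gene level rests on 4 of the 11 annotated transcripts, of which Apoe-206 held 72.5% of the counts, and other transcripts were not analysed here. In the authors' deposited table, which tests each transcript, Apoe-206 had a log2 fold change of -0.88 in neurites (false discovery rate 0.0367) and -0.52 in soma (0.0395), and Apoe-210 one of -1.44 in neurites (0.036).

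Slc1a3 encodes the glial glutamate transporter GLAST, and Glul encodes glutamine synthetase, which turns glutamate into glutamine. Slc1a3 was low, with 1.06, 1.19 and 0.165 CPM in het neurites, against 4.41, 1.28 and 2.06 CPM for WT neurites. It had 344 counts over all 12 libraries, from 4 to 63 in each, and the lowest, in het neurites 3, was close to the floor. The het libraries lay below the WT libraries, the closest pair at 1.19 and 1.28 CPM, and the log2 fold change of -1.67 ± 0.62 missed the threshold (adjusted p = 0.15). In the soma Slc1a3 had 0.875, 0.388 and 0.458 CPM in het, against 2.15, 1.28 and 0.712 CPM in WT, which overlapped (log2 fold change -1.23 ± 0.63, adjusted p = 0.605). In the authors' deposited table the transcript Slc1a3-201 was at -1.77 in neurites (false discovery rate 0.0399) and at -1.25 in soma (0.00515), both past 0.05. Glul had 492, 560.0 and 517 CPM in het neurites, against 424, 588 and 434 CPM in WT neurites. In the soma it had 499, 560.0 and 451 CPM in het, against 407, 534 and 445 CPM in WT. Its groups overlapped in both compartments, with log2 fold changes of 0.12 ± 0.14 in neurites (adjusted p = 0.676) and 0.12 ± 0.14 in soma (adjusted p = 0.844).

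Pla2g7 encodes a secreted phospholipase that inactivates platelet-activating factor. It had 70.7, 88.6 and 65.9 CPM in het neurites, against 64.7, 63.4 and 60.6 CPM in WT neurites. Here the het libraries all lay above the WT libraries, the opposite order to Fabp7, with a log2 fold change of 0.26 ± 0.11 that missed the threshold (adjusted p = 0.213). In the soma Pla2g7 had 93.5, 99.6 and 112 CPM in het, against 93.4, 94.1 and 84.0 CPM in WT, which overlapped (log2 fold change 0.17 ± 0.11, adjusted p = 0.709). Hapln1 encodes a link protein that holds proteoglycans such as brevican on hyaluronan. It had 9.34, 9.63 and 6.89 CPM in het neurites, against 6.65, 8.41 and 7.70 CPM in WT neurites, which overlapped (log2 fold change 0.18 ± 0.19, adjusted p = 0.62). In the soma Hapln1 had 18.3, 17.6 and 13.2 CPM in het, against 14.0, 10.3 and 13.9 CPM in WT, also overlapping (0.37 ± 0.18, adjusted p = 0.555). Hapln1 was thus not called in either compartment. Its log2 fold changes were above 0, where those of Bcan, picked for low levels in het, were below 0. The neurite value of Hapln1 was smaller than its SE.

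Ednrb encodes the endothelin B receptor of glia and other cells. It had 4.67, 5.76 and 2.72 CPM in het neurites, against 5.53, 5.45 and 5.25 CPM for WT neurites, and 3.89, 4.62 and 5.91 CPM in het soma, against 3.88, 6.82 and 5.12 CPM in WT soma. Both pairs of groups overlapped, with log2 fold changes of -0.30 ± 0.27 in neurites (adjusted p = 0.558) and -0.14 ± 0.26 in soma (adjusted p = 0.911). In neurites 4 of the 7 genes had no overlap between genotypes, 3 of them lower in het (Sox2, Apoe and Slc1a3) and 1 higher (Pla2g7), and over all genes 10.8% stood apart lower and 7.53% higher. In soma 1 of the 7, Sox2, stood apart, and over all genes 11.9% stood apart lower and 8.86% higher.

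In soma none of the 7 genes passed by edgeR, where 0% of all genes did. At an unadjusted p under 0.05, 1 of the 7 (Sox2) and 1464 of all genes passed. Of the 15990 genes, 3343 had such a p for het against WT in neurites, 3140 for neurites against soma in WT and 2301 in het. These numbers belong beside the unadjusted counts of the lists below. DESeq2 called Sox2 among 320 genes, limma voom called 0 genes, and the fit blocked on replicate number called Sox2 among 520 genes.

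**Figure D2:**
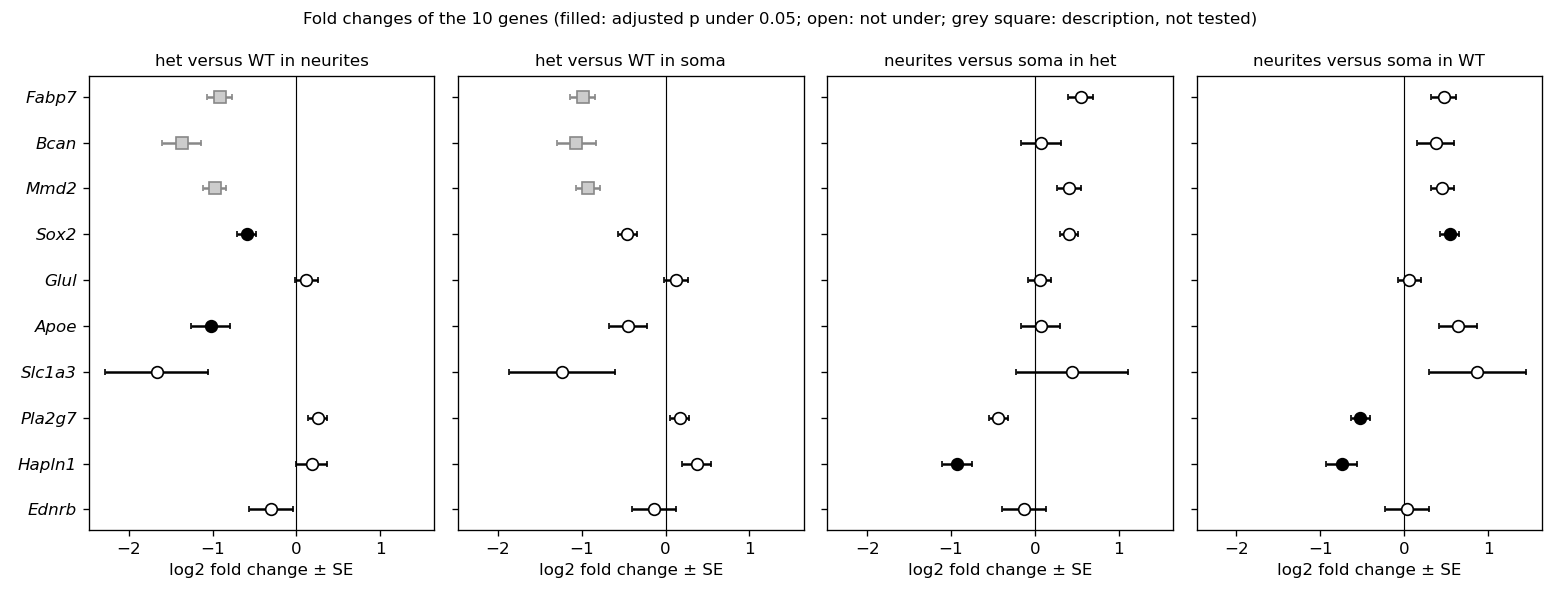
Log2 fold change ± SE of each gene (rows) in 4 comparisons (panels), het over WT in neurites and in soma, and neurites over soma in het and in WT. Filled circles passed an adjusted p of 0.05 and open circles did not; grey squares mark Fabp7, Bcan and Mmd2, which were picked for this difference and have no test; Sox2 and Apoe are the filled points left of 0 in the het neurite panel.

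Next, neurites were set against soma within each genotype, a comparison that did not enter the choice of members, so that all 10 genes were tested. In WT cultures Sox2 rose in neurites, by 1.46-fold, while Pla2g7 and Hapln1 fell, by 1.44-fold and 1.67-fold. The other 7 genes did not pass. Over all genes 3.1% passed (2.41% higher and 0.688% lower). The median log2 fold change of the 10 genes was 0.41, beside 0.01 over all genes, and 8 of the 10 were above 0 and 2 below it, where 50.7% and 49.3% of all genes were. In het 7 of the 10 were above 0 and 3 below it, where 49.2% and 50.8% of all genes were.

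The 227, 183 and 176 CPM of Sox2 in WT neurites lay above its 124, 139 and 139 CPM in WT soma, a log2 fold change of 0.54 ± 0.11 (adjusted p = 0.0196). This call was lost without WT neurites 1 (adjusted p = 0.075), WT soma 1 (0.089) or WT soma 2 (0.0746), and when the 6 WT libraries were fitted alone (0.0818). Pla2g7, at 64.7, 63.4 and 60.6 CPM in WT neurites, lay below its 93.4, 94.1 and 84.0 CPM in WT soma, a log2 fold change of -0.52 ± 0.11 (adjusted p = 0.0245). It was lost without WT neurites 1 (0.0636), WT neurites 3 (0.0692), WT soma 1 (0.089) or WT soma 2 (0.111), and in the 6 WT libraries alone (0.0554). With the block on replicate number both genes passed in WT (adjusted p = 0.00501 for Sox2 and 0.00708 for Pla2g7).

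Hapln1, at 6.65, 8.41 and 7.70 CPM in WT neurites, lay below its 14.0, 10.3 and 13.9 CPM in WT soma, a log2 fold change of -0.74 ± 0.18 (adjusted p = 0.0409). This call was lost in several fits: adjusted p was 0.141 without WT neurites 1, 0.0901 without WT neurites 3, 0.135 without WT soma 1, 0.0564 without WT soma 2, 0.113 without WT soma 3, 0.0513 without het soma 1, 0.0632 without het soma 2, 0.0658 by limma voom and 0.094 in the 6 WT libraries alone. In het cultures Hapln1 was the 1 gene of 10 that passed in the fit without a block. It stood at 9.34, 9.63 and 6.89 CPM in het neurites, against 18.3, 17.6 and 13.2 CPM in het soma (log2 fold change -0.93 ± 0.18, adjusted p = 0.0381). Over all genes 0.638% passed in het (0.544% higher and 0.0938% lower). The het call was lost without any of the 3 het soma libraries (adjusted p = 0.129, 0.222 and 0.0787), without het neurites 1 (0.0895) or 3 (0.107), and without WT neurites 3 (0.0557) or WT soma 3 (0.0544). In both genotypes every neurite library of Hapln1 lay below every soma library. With the block on replicate number Hapln1 passed in WT (adjusted p = 0.0151) and in het (adjusted p = 0.00807).

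Fabp7 and Mmd2 had neurite libraries above the soma libraries of the same genotype in every case. For Fabp7 the log2 fold change was 0.54 ± 0.15 in het (adjusted p = 0.115) and 0.47 ± 0.15 in WT (adjusted p = 0.0947). Blocking on the replicate number gave 0.47 for Fabp7 in WT and 0.54 in het, and both passed (adjusted p = 0.0355 each). For Mmd2 it was 0.41 ± 0.14 in het (adjusted p = 0.208) and 0.45 ± 0.14 in WT (adjusted p = 0.0894), and the WT value of Mmd2 with the block was 0.45 and passed (adjusted p = 0.0396). With that block 5 of the 10 genes passed in WT, 3 of them higher and 2 lower, among 1510 genes in all. Bcan overlapped between compartments in both genotypes, with log2 fold changes of 0.07 ± 0.23 in het (adjusted p = 0.928) and 0.37 ± 0.22 in WT (adjusted p = 0.38).

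In het cultures Sox2 had a neurite to soma log2 fold change of 0.41 ± 0.11 (adjusted p = 0.115) and Pla2g7 one of -0.44 ± 0.11 (adjusted p = 0.0976), both with no overlap and both short of the threshold. With the block on replicate number both passed (adjusted p = 0.0349 for Sox2 and 0.0278 for Pla2g7). Apoe was at 0.07 ± 0.23 in het (adjusted p = 0.931) and at 0.64 ± 0.23 in WT (adjusted p = 0.136), where its neurite libraries lay above its soma libraries. The remaining values were 0.06 ± 0.14 in het and 0.06 ± 0.14 in WT for Glul, 0.44 ± 0.67 in het and 0.87 ± 0.58 in WT for Slc1a3, and -0.13 ± 0.26 in het and 0.03 ± 0.26 in WT for Ednrb, all with overlapping groups. In WT 4 of the 10 genes stood apart higher and 2 lower in neurites, where 12.4% and 9.96% of all genes did. In het 3 stood apart higher and 2 lower, where 11.7% and 10.6% of all genes did.

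Whether the neurite to soma difference itself differed between genotypes was tested for the 7 genes that were not picked, and none passed by edgeR, where 0% of all genes did. No gene passed by DESeq2 or limma voom either, and at an unadjusted p under 0.05 there were 0 of the 7 genes and 202 of all genes in edgeR. The smallest unadjusted p of the 7 was 0.0997, for Apoe, with a log2 difference of -0.57 ± 0.33. Of the 7, 6 differences were below 0 and 1 above it, where 53.2% and 46.8% of all genes were. Fabp7 had 0.07 ± 0.21, Bcan -0.30 ± 0.33 and Mmd2 -0.05 ± 0.20, given as a description.

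The 10 genes did not move as a block. The likeness of a pair was measured as the root mean square (RMS) difference between their log2 CPM profiles over the 12 libraries, each centred on its own mean, so that 0 means the same profile. Fabp7 and Mmd2 were the closest pair at 0.0755, and Mmd2 was also the nearest gene to Sox2 (0.261) and to Bcan (0.311), while Apoe lay nearest to Sox2 (0.296). Pla2g7 and Hapln1 were nearest to each other (0.283), Glul was nearest to Pla2g7 (0.327) and Ednrb to Glul (0.336). Slc1a3, with its few counts, was far from every other member, the nearest being Bcan at 0.491 and the farthest Hapln1 at 1.01. Since Fabp7, Bcan and Mmd2 were picked for a shared difference, their closeness is in part set by the choice. Fabp7 was also compared with 7145 genes outside the set that averaged at least 10 CPM. Predicted genes, clones, pseudogenes and small RNAs were left out of these by the form of their names. Those nearest to Fabp7 were Gsap (0.114), Mastl (0.143), Stard8 (0.144), Hist1h3b (0.164) and Car13 (0.168), and the median of all compared was 0.568. Gsap, the closest, averaged 27.8 CPM in het neurites, 46.8 for WT neurites, 19.8 CPM in het soma and 34.8 CPM in WT soma.

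**Figure D3:**
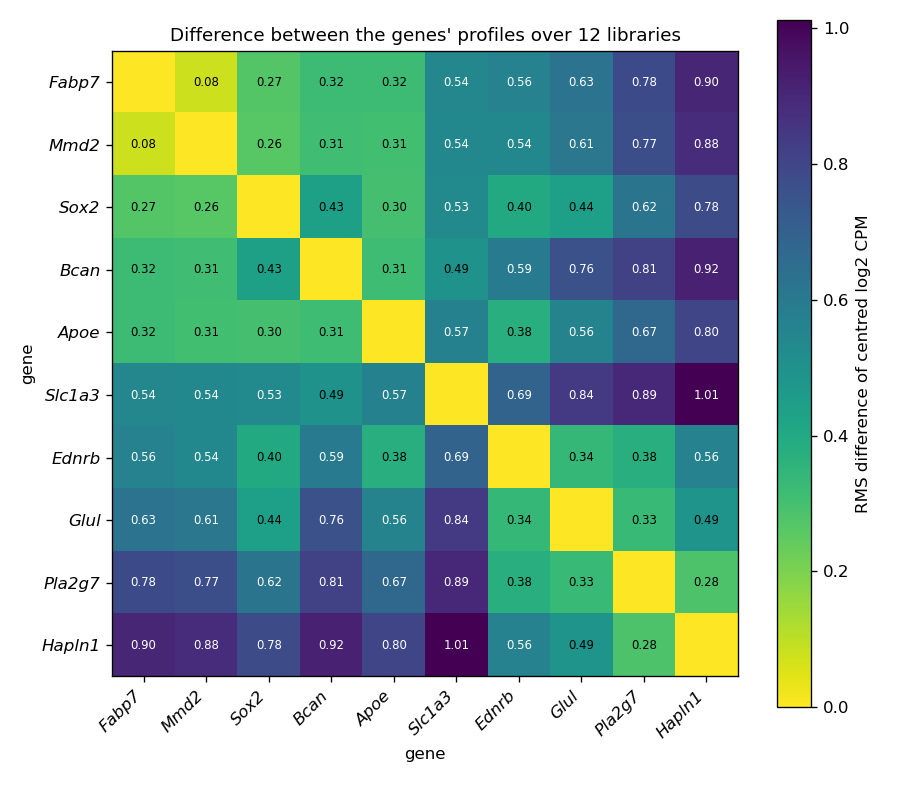
RMS difference between the centred log2 CPM profiles of each pair of the 10 genes over the 12 libraries (both axes list the genes; colour and cell numbers give the difference, yellow for the smallest). Fabp7 and Mmd2 form the closest pair at 0.0755, and Slc1a3 and Hapln1 the farthest at 1.01.

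Levels between genes were compared per length, as CPM per kilobase of transcript. In WT soma Glul led with 175 ± 25.7, followed by Sox2 with 65.2 ± 4.28, Pla2g7 with 46.3 ± 2.50, Fabp7 with 29.2 ± 3.86 and Mmd2 with 11.2 ± 1.28 (SD, n = 3 each). Apoe had 8.82 ± 2.09, Bcan 5.21 ± 0.722, Hapln1 2.22 ± 0.372, Ednrb 1.31 ± 0.363 and Slc1a3 0.332 ± 0.174. The gap between Mmd2 and Apoe was smaller than the sum of their SDs, and the gaps between the other neighbours in this order were larger. In het soma the order was different: Pla2g7 had 52.4 ± 4.99 and Sox2 47.5 ± 1.84, a gap smaller than the sum of their SDs. Further down, Fabp7 had 14.6 ± 2.34, Apoe 6.84 ± 1.72 and Mmd2 5.88 ± 0.877, while Hapln1 had 2.87 ± 0.486 and Bcan 2.50 ± 0.479.

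The 22 other satellite glia genes were examined beside the set. In het neurites 7 of them fell and none rose by edgeR (12 lower by DESeq2), with a median log2 fold change of -0.85, beside -0.01 over all genes. Of the 22, 19 were below 0 and 3 above it, and 18 were lower and 1 higher at an unadjusted p under 0.05. The 3 above 0 in het against WT neurites were Sox9 (12.6 ± 1.82 against 9.68 ± 1.08 CPM), S100b (441 ± 62.4 against 368 ± 60.9) and Aldoc (2.94 ± 0.754 against 2.51 ± 0.632). Of these, only Sox9 had all het neurite libraries above all WT neurite libraries. Sox10, a transcription factor of neural crest glia, had 238 ± 30.4 CPM in het neurites and 371 ± 27.5 CPM in WT neurites (log2 fold change -0.64 ± 0.11, adjusted p = 0.0159). The protease inhibitor Timp3 was at -0.85 ± 0.18 (adjusted p = 0.0278) and the secreted Wnt antagonist Sfrp5 at -1.42 ± 0.32 (adjusted p = 0.0302). In soma none of the 22 passed by edgeR, 17 were lower and 1 higher at an unadjusted p under 0.05, DESeq2 called 7 lower and the fit blocked on replicate number called 4 lower. Their median there was -0.67, beside 0.01 over all genes, and 19 of the 22 were below 0. Between neurites and soma in WT, edgeR called 1 gene higher, Sox10 (0.50 ± 0.11, adjusted p = 0.0239), while 16 were higher and 1 lower at an unadjusted p under 0.05, 10 were higher by DESeq2, and 5 were higher and 1 lower with the block. In het none passed by edgeR (9 higher at an unadjusted p under 0.05, 2 by DESeq2). The median was 0.42 in het and 0.58 in WT. The 7 calls in het neurites went to 0 without WT neurites 1, WT neurites 3, het neurites 2 or het neurites 3, to 4 without het soma 1, to 11 without het neurites 1 and to 12 without WT neurites 2. The 1 call in WT went to 0 without WT neurites 1, WT soma 1 or WT soma 2, to 2 without WT neurites 3, to 3 without het neurites 1 and to 6 without WT neurites 2.

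Sox2, Fabp7, Bcan, Glul and Pla2g7 were set against the summed level of these 22 genes. Genes of high level weigh most in that sum. In WT neurites Timp3 had 1078 ± 220 CPM and Lgi4 476 ± 129 CPM, where the sum was 3635 to 4352 CPM. Sox2 was 5.18 ± 0.524% of that sum in het neurites and 4.77 ± 0.618% in WT neurites, and 4.84 ± 0.227% in het soma and 4.57 ± 0.13% in WT soma. Fabp7 was 0.692 ± 0.0847% in het neurites and 0.793 ± 0.0852% in WT neurites, and 0.586 ± 0.107% in het soma and 0.801 ± 0.0954% in WT soma. Bcan was 0.324 ± 0.0245% in het neurites and 0.509 ± 0.115% in WT neurites, and 0.387 ± 0.0611% in het soma and 0.56 ± 0.0924% in WT soma. The mean Sox2 ratio lay between 4.57% and 5.18% in the 4 groups, with single libraries from 4.06% (WT neurites 3) to 5.79% (het neurites 3). On this scale the het and WT neurite libraries of Sox2 overlapped. Its het soma libraries (5.10%, 4.69% and 4.73%) all lay above its WT soma libraries (4.42%, 4.61% and 4.67%), the opposite order to its CPM. Glul was 21.2 ± 4.44% in het neurites and 11.98 ± 3.64% in WT neurites, and 25.0 ± 3.30% in het soma and 15.7 ± 1.75% in WT soma. Pla2g7 was 3.02 ± 0.624% in het neurites and 1.54 ± 0.179% in WT neurites, and 5.03 ± 0.305% in het soma and 3.09 ± 0.259% in WT soma. These ratios are descriptions (SD, n = 3 each), with no test.

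Lists of other cell types were summed in the same libraries, and their part in the results above was not tested. The sum of 14 proliferation genes was 450 to 808 CPM in het neurites, 904 to 1595 for WT neurites, 352 to 466 CPM in het soma and 752 to 1059 CPM in WT soma, with no overlap between genotypes in either compartment. In het neurites 7 of the 14 fell and none rose, with a median log2 fold change of -1.29; Mcm2, a helicase subunit of DNA replication, was at -0.84 ± 0.18 (adjusted p = 0.0278) and Top2a, a topoisomerase, at -1.52 ± 0.34 (adjusted p = 0.0438). In soma none of the 14 passed by edgeR, but all 14 were lower at an unadjusted p under 0.05, 9 by DESeq2 and 12 in the blocked fit, with a median of -1.11. The 7 calls in neurites went to 0 without WT neurites 1, WT neurites 3, het neurites 2 or het neurites 3, to 1 without het soma 1 or het soma 3, to 3 without WT soma 1, to 4 without WT soma 2 or WT soma 3, and to 12 without WT neurites 2.

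Of 14 tested Schwann cell and myelin genes, 3 fell in het neurites: Egr2, a transcription factor of myelination (-0.94 ± 0.17, adjusted p = 0.0203), Prx, a protein of the myelin sheath (-1.09 ± 0.23, adjusted p = 0.025), and Dhh, a hedgehog ligand (-0.88 ± 0.20, adjusted p = 0.0372). The summed level of that list was 1612 to 2139 CPM in het neurites, 2152 to 2576 for WT neurites, 2344 to 2458 CPM in het soma and 2330 to 2687 CPM in WT soma, and Ncmap, Gjb1 and Olig1 were not tested. Of 11 fibroblast genes, Fap fell in het neurites (-0.93 ± 0.22, adjusted p = 0.0354), and the list summed to 1088 to 2181 CPM in het neurites, 1351 to 4257 for WT neurites, 899 to 1760 CPM in het soma and 1511 to 2932 CPM in WT soma. The Schwann and fibroblast calls in het neurites also went to 0 without WT neurites 3, het neurites 2 or het neurites 3, and the Fap call also without het soma 1 or het soma 3. The Schwann calls went to 1 without WT neurites 1, to 5 without het neurites 1 and to 6 without WT neurites 2. In soma no gene of either list passed by edgeR. There 6 Schwann genes and 1 fibroblast gene were lower at an unadjusted p under 0.05, 3 and 1 by DESeq2, and 4 and 2 in the blocked fit. Between neurites and soma in WT, 11 of 14 Schwann, 9 of 11 fibroblast and 13 of 14 proliferation genes were above 0, the direction of Sox2. Their medians were 0.41, 0.29 and 0.47. In het 10, 9 and 14 genes were above 0, with medians of 0.20, 0.11 and 0.40. Of these lists edgeR called Prx higher and Ngfr lower in WT, and Ngfr lower in het. With single libraries left out, no Schwann gene was called higher in WT without WT neurites 3, WT soma 1 or WT soma 2. A lower Schwann call remained in WT only without WT neurites 2, het neurites 2 or het neurites 3. In het it remained only without WT neurites 1, WT neurites 2 or het neurites 2.

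Of 18 neuronal genes, Uchl1, a ubiquitin hydrolase of neurons, rose in het neurites (0.46 ± 0.11, adjusted p = 0.0403), and the median of the list was 0.28. It was the 1 call of the list by edgeR, while 8 of the 18 were higher at an unadjusted p under 0.05, 6 by DESeq2 and 7 in the blocked fit. Between neurites and soma in WT, 4 of the 18 fell, Rbfox3, Calca and Uchl1 among them, and all 18 were below 0, with a median of -0.42, which is the direction of Pla2g7 and Hapln1 and opposite to that of Sox2. The Uchl1 call in het neurites was lost without WT neurites 1, WT neurites 3, WT soma 3, het neurites 2, het neurites 3, het soma 2 or het soma 3, and 5 genes of the list were higher without WT neurites 2 and 2 without het neurites 1. The 4 calls in WT became 1 without WT neurites 1, WT soma 1 or WT soma 2, 2 without WT neurites 3, 7 without WT neurites 2, 9 by DESeq2 and 11 in the blocked fit. Macrophage genes, which share Apoe with glia, summed to 131 to 330.1 CPM in het neurites, 98.8 to 206 for WT neurites, 207 to 433 CPM in het soma and 160 to 255 CPM in WT soma over 9 tested genes. None of the 9 passed in any comparison by edgeR or DESeq2 (0 to 2 at an unadjusted p under 0.05 in each). The fit blocked on replicate number called 1 of them, Mrc1, a mannose receptor of macrophages, higher in het soma (0.64 ± 0.15, adjusted p = 0.0266) and lower in het neurites against het soma (-0.79 ± 0.15, adjusted p = 0.00973). The median of the list in het neurites was 0.35, and the macrophage receptor gene Csf1r had 0 to 12 counts in neurite libraries and 1 to 11 in soma libraries. Between neurites and soma, all 9 macrophage genes were below 0 in WT (median -0.36) and 8 of 9 in het (median -0.45). That is also the direction of Pla2g7 and Hapln1, and 49.3% and 50.8% of all genes were below 0 there. For het against WT in soma all 9 were above 0 (median 0.35), where 51.5% of all genes were. Endothelial genes, 8 of 11 tested, summed to 81.4 to 137 CPM in het neurites, 75.5 to 182 for WT neurites, 115 to 154 CPM in het soma and 94.9 to 177 CPM in WT soma, and none passed by edgeR or DESeq2 (0 to 2 at an unadjusted p under 0.05 in each comparison).

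**Figure D4:**
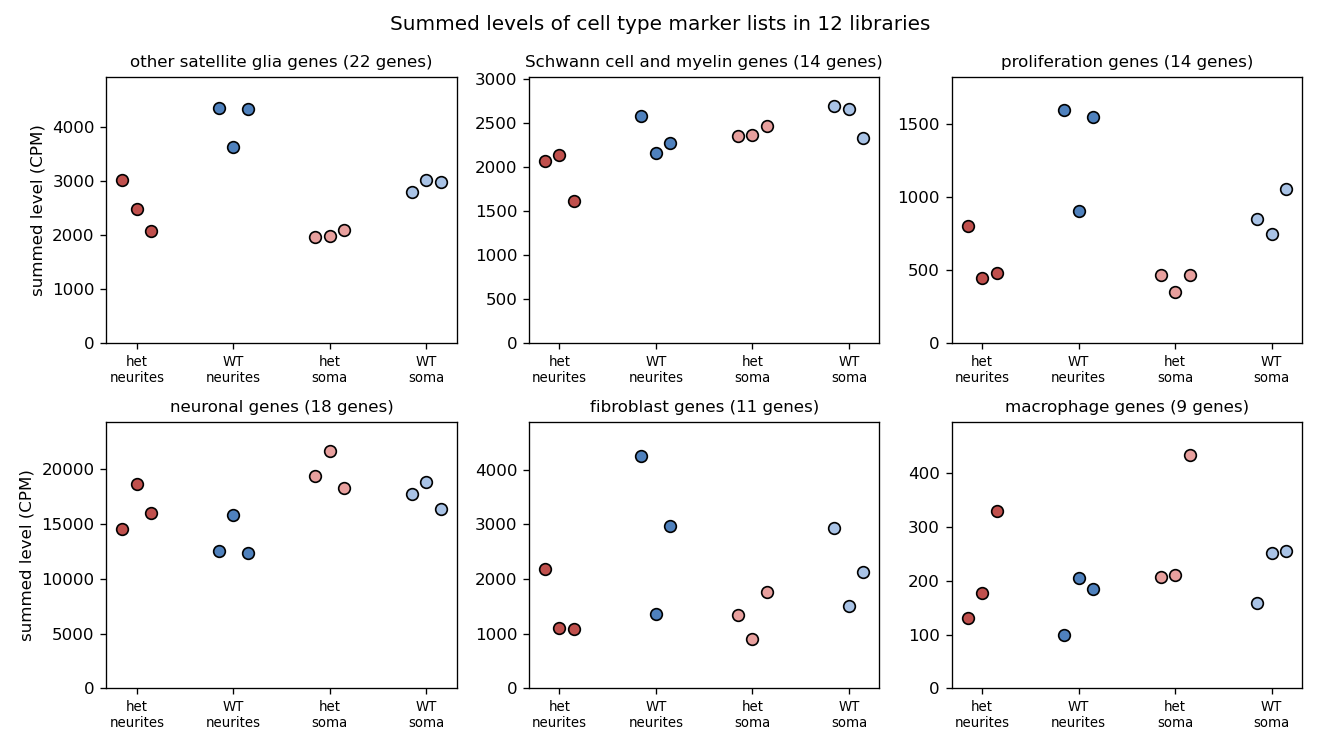
Summed level in CPM (linear axes from 0) of 6 gene lists in every library, by group from left to right het neurites, WT neurites, het soma and WT soma; each point is a library and the number of genes summed is in the title of the panel. The sums of the other satellite glia genes and of the proliferation genes were lower in all het libraries than in all WT libraries of the same compartment, while the macrophage sums overlapped.

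Genes that work with single members were counted in the same way. Of 9 tested SOX factor genes other than Sox2, Sox4 and Sox10 rose in WT neurites (Sox4 0.79 ± 0.11, adjusted p = 0.00452), Sox4 rose in het neurites against het soma (0.54 ± 0.11, adjusted p = 0.0468), and Sox10 fell in het neurites against WT neurites. Of 10 other PAQR family genes, the relatives of Mmd2, Paqr6 fell in het neurites (-1.92 ± 0.50, adjusted p = 0.0484), at 0.373 ± 0.245 CPM in het neurites and 1.34 ± 0.536 CPM in WT neurites, and this call remained only without WT neurites 2 or het neurites 1. The Sox4 call in het remained without WT neurites 1, WT neurites 2 or WT neurites 3 and was lost without any other library. That of Sox10 in het neurites was lost without WT neurites 1, WT neurites 3, het neurites 2 or het neurites 3. None of the 12 tested hyaluronan and lectican matrix genes, the partners of Bcan and Hapln1, passed in any comparison by edgeR or DESeq2 (0 to 3 at an unadjusted p under 0.05 in each). The fit blocked on replicate number called 1 of them, the hyaluronan synthase gene Has2, lower in het in soma (-0.83 ± 0.15, adjusted p = 0.0042) and in neurites (-0.92 ± 0.15, adjusted p = 0.00104). In het neurites 3 of these 12 were lower at an unadjusted p under 0.05, where 3343 of the 15990 genes passed in either direction. Their median log2 fold change was -0.44, and Hyal2, a hyaluronidase, was at -0.39 ± 0.14 (adjusted p = 0.126).

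The unadjusted counts that follow stand beside 3343 of the 15990 genes in het neurites, in either direction. Among 15 lipid transport genes, the partners of Apoe and Fabp7, none passed by edgeR in het neurites (4 lower at an unadjusted p under 0.05, 2 by DESeq2), and the lipoprotein receptor gene Vldlr was at -0.53 ± 0.17 (adjusted p = 0.0991). Among 10 glutamate and glutamine genes, beside Glul and Slc1a3, none passed by edgeR or DESeq2 in het neurites (2 higher at an unadjusted p under 0.05), and Got1, an aminotransferase, was at 0.35 ± 0.12 (adjusted p = 0.131). Among 5 tested endothelin genes, beside Ednrb, none passed by edgeR in het neurites (1 lower at an unadjusted p under 0.05 and 1 by DESeq2), and Ece1, an endothelin-converting enzyme, was at -0.60 ± 0.17 (adjusted p = 0.071). Among 7 platelet-activating factor genes, beside Pla2g7, none passed by edgeR or DESeq2 in het neurites, with 0 at an unadjusted p under 0.05, and Lpcat1, an acyltransferase, was at -0.56 ± 0.33 (adjusted p = 0.348). Their medians in het neurites were -0.02 for lipid transport, 0.07 for glutamate and glutamine, -0.15 for endothelin and 0.16 for platelet-activating factor.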

How the data were processed

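Per the labels, stranded libraries were made after removal of ribosomal RNA. CASAVA 1.8.2, edgeR and mm10 (GRCm38) are named in the submitters' processing notes. Which aligner and counter were run is not stated in what was used here. Raw counts were deposited by the authors per Ensembl transcript, 1 table per compartment, with 35313 transcripts for soma and 32838 for neurites, and, per the file headers, log2 fold changes of het over WT with p-values and false discovery rates. Every deposited transcript had at least 5 counts in at least 3 libraries of its table. The remaining 24 per-sample columns were not used. Transcripts without a gene name (0.574% to 0.694% of counts) were left out.

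Counts were summed per gene over 31420 named transcripts shared by the tables. After filterByExpr and TMM scaling, genes were tested in edgeR 4.0.16 (R 4.3.3) by a robust quasi-likelihood fit of all 12 libraries with 1 mean per group, adjusted by the Benjamini-Hochberg method over 15990 genes, 2-sided, at 0.05. CPM use TMM library sizes, and likeness adds 0.5 CPM before log2. DESeq2 1.42.0 and limma 3.58.1 gave alternatives, and the fit was tested on simulated data. The biological coefficient of variation was 0.163. Gene positions are from GENCODE M21. Members, lists and tests were chosen with earlier results of these data known. Named from each list were up to 4 passing genes with the smallest p, or at most 2 where none passed, and some of these are given by their counts only. Mrc1 and Has2 were named after their values were seen.

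Same-numbered libraries deviated together in WT neurites and WT soma (correlations 0.278, 0.341 and 0.23) and in het soma and WT soma (0.222, 0.273 and 0.159). They also did, less evenly, in het neurites and het soma (0.205, 0.256 and 0.0504). For these comparisons, block values are given for the members that passed with the block. The labels do not say what a number marks.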

Additional observations from a re-analysis of the deposited data

How the results depend on the processing

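The 3 libraries per group limit every call, and leaving out single libraries moved the counts of called genes widely. With 1 library left out in turn, genes called numbered 93 to 1081 for neurites against soma in WT, 0 to 191 in het, 0 to 64 for het against WT in soma and 0 to 1767 in neurites. Members called then numbered 0 to 3 of 10, 0 to 2 of 10, 0 of 7 and 0 to 2 of 7 in the same order. The cause was not tested.

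Neurites against soma in WT gave 495 genes and 3 members, against 1146 and 5 by DESeq2 and 40 and 0 in the 6 libraries alone. In het it gave 102 genes and 1 member, against 488 and 4 by DESeq2. For het against WT in soma, 0 genes and 0 members became 320 and 1 by DESeq2, 388 and 1 with all transcripts of the soma table, and 388 and 1 in the 6 libraries alone. For het against WT in neurites, 523 genes and 2 members became 1209 genes by DESeq2, and 0 and 0 both with all transcripts of the neurite table and in the 6 libraries alone. The interaction called 0 members in every fit.

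With replicate number as a block, genes and members called were 1510 and 5 in WT and 668 and 4 in het (neurites against soma), and 520 and 1 in soma and 1696 and 3 in neurites (het against WT). With genotype and number together as a block, as if a number marked a culture, they were 1489 and 5 in WT and 671 and 5 in het. For het neurites and het soma the same-number correlations were 0.205, 0.256 and 0.0504, all above the highest between different numbers, 0.00797. For het and WT neurites they were 0.142, 0.224 and -0.0373, where the highest between different numbers was 0.128. The main fit pairs no libraries, so its neurite to soma values short of the threshold in het come from an unpaired test. With number as a block, the members that newly passed for neurites against soma in het were Fabp7 (adjusted p = 0.0355), Sox2 (0.0349) and Pla2g7 (0.0278). With genotype and number together they were Fabp7 (0.0133), Mmd2 (0.042), Sox2 (0.0443) and Pla2g7 (0.0283). For het against WT in neurites, Slc1a3 newly passed with number as a block (0.0195).

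The following directions turned. The interaction of Glul (-0.01) was 0.0072 by DESeq2 and with DESeq2's size factors, 0.00497 by limma voom, 0.0044 with culture and 0.0029 with number as a block. With 1 library left out, log2 fold changes of neurites over soma in WT ran -0.11 to 0.18 for Glul and -0.15 to 0.27 for Ednrb. In het they ran -0.14 to 0.24 for Bcan, -0.011 to 0.14 for Glul, -0.071 to 0.27 for Apoe, -0.014 to 0.93 for Slc1a3 and -0.38 to 0.13 for Ednrb. Ednrb in soma, het over WT, ran -0.32 to 0.091. Interactions ran -0.038 to 0.23 for Fabp7, -0.17 to 0.10 for Mmd2, -0.12 to 0.16 for Glul, -0.91 to 0.15 for Slc1a3, -0.050 to 0.18 for Pla2g7 and -0.42 to 0.094 for Ednrb. Over all alternatives, 839 single-gene values stayed the same, 39 turned, 37 no longer passed and 22 newly passed. For tested values, the same means the same direction and side of the threshold. For the untested values of Fabp7, Bcan and Mmd2 it means the same direction and a shift smaller than the SD within groups.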
